A study of Mus musculus with 2 samples.

Results

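The genes described here belong to T cells, to the thymus and to the presentation of antigens, and they were measured in the embryonic mouse neural tube. They are 38 of 43346 annotated genes in the tables, and all 38 were found. They were chosen by name because they had been seen high in replicate 1 only. Their difference between the libraries is therefore a description and no finding, and it carries no test. Total RNA was sequenced from strain B6NCrl embryos at 15.5 days, healthy and of both sexes, with no treatment and no altered gene. Replicate 1 came from a pool of 78 embryos and replicate 2 from a pool of 62, and the labels call them biological replicates of 1 tissue. From each pool, 10 ng of RNA longer than 200 nucleotides entered the library. With 2 pools of 1 group there was no condition to compare and no replicate of either pool, so no p-value is given, and intervals on counts cover counting error only.

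The thymus is the organ in which T cells form. Progenitors from the blood enter it, pass through early stages without the coreceptors CD4 and CD8, cut and join the gene segments of their receptor chains, and then gain both coreceptors before settling on one. The stroma that guides them is an epithelium derived from the pharyngeal pouches, which secretes chemokines, supplies the Notch ligand and interleukin 7, and shows self peptides on MHC class II molecules. The neural tube, which becomes the brain and spinal cord, is not known as a site of T cell formation.

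The labelled tissue was present in both libraries by its own markers. All 8 neuronal genes checked stood at 1 TPM or more in both, led by Tubb3, a tubulin of neurons, at 1060 TPM in replicate 1 and 1275 TPM in replicate 2. TPM is a transcript level corrected for length and library size. The gene tables held 34678043 expected counts (reads shared out between transcripts by a model) in replicate 1 and 41355355 in replicate 2, so replicate 2, where the 38 genes were low, was the deeper library.

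Of the 38 genes, 34 stood at 1 TPM or more in replicate 1 and 10 in replicate 2. Their levels summed to 1853 TPM and 169.9 TPM, and Ctsl alone gave 107 TPM of the second sum. A gene was called higher by a size rule with 3 parts: the log2 ratio of (TPM + 1) had to reach 1, the mean over both libraries 5 TPM and the counts of both libraries together 50. Over all genes, 11969 met the 2 minimums, and 400 of them (3.34%) were higher in replicate 1, against 16 that were lower. Of the 38 genes, 25 met the minimums and 23 were called higher, 22 of them by 4-fold or more, a size reached by 1.21% of all genes tested. These counts restate how the genes were chosen, and the minimums admit a low gene mostly through the library in which it is high. The median log2 ratio was 3.22 over the 38 genes and 0.01 over all genes tested. In bulk RNA, fewer cells of a type and less RNA per cell cannot be told apart.

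Not every gene went with the description by which it was chosen. Bcl11b, a transcription factor of T cell commitment that neurons also use, stood at 18.1 TPM in replicate 1 and 17.6 TPM in replicate 2. Thy1, a surface protein of both thymocytes and neurons, stood at 12.2 and 6.49 TPM. Ctsl, the lysosomal protease cathepsin L, stood at 253 and 107 TPM and was thus high in both pools. Dntt, Cd4, Cd8a and Cd28 stayed under 1 TPM in both libraries.

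**Figure D1:**
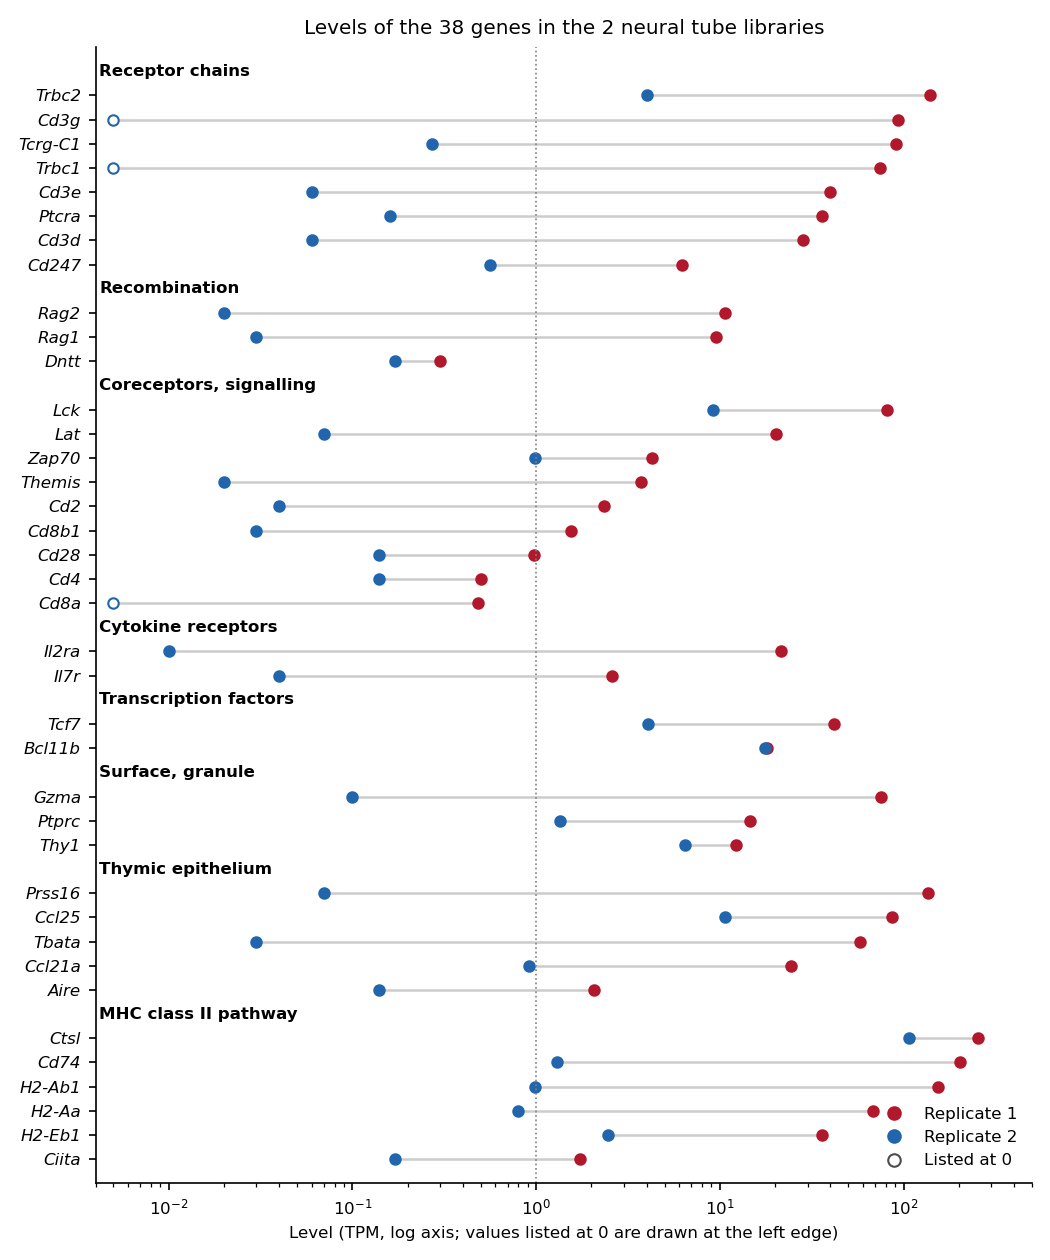
Level of each of the 38 genes on a log axis in TPM, with 1 red point for replicate 1 and 1 blue point for replicate 2, grouped by role; open points are listed at 0 and the dotted line marks 1 TPM. The red points lie far to the right for most receptor and epithelial genes, the points of Bcl11b coincide near 18 TPM, and Dntt, Cd4, Cd8a and Cd28 lie left of the dotted line in both libraries.

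All 8 receptor chains stood at 6.25 TPM or more in replicate 1, and only Trbc2 (4.01 TPM) reached 1 TPM in replicate 2. The T cell receptor is a pair of variable chains held by the CD3 chains, which carry its signal into the cell. Cd3g (ENSMUSG00000002033.9), the CD3 gamma chain, stood at 93.0 TPM in replicate 1 and 0 TPM in replicate 2, with 1883 and 0 expected counts. Against a floor of 3 counts in replicate 2 it was at least 749-fold higher in replicate 1. Cd3e, the epsilon chain, stood at 39.9 TPM (1182 counts) and 0.06 TPM (2 counts). Cd3d, the delta chain, stood at 28.4 TPM (770 counts) and 0.06 TPM (2 counts). All 3 are neighbours on chromosome 9 of GRCm38, with Cd3g at 44969572 to 44980431, Cd3d at 44981786 to 44987339 and Cd3e at 44998740 to 45009627, and the starts of Cd3g and Cd3d lie 1355 bases apart on opposite strands.

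Cd247, the zeta chain on chromosome 1, was below Cd3d, Cd3e and Cd3g in replicate 1, at 6.25 TPM. In replicate 2 it was above them, at 0.56 TPM. Cd3g exceeded it by 14.9-fold in replicate 1. Its remaining transcripts were of another kind: the full coding transcript Cd247-201 gave 89.1% of the gene in replicate 1 and 25.8% in replicate 2, where the noncoding Cd247-207 gave 39.2%. The replicate 2 shares rest on 15.0 counts. Cd247 overlaps Pou2f1 on the opposite strand, which stood at 12.6 and 12.1 TPM, and any use of strand in the counting was not given in the sources used here.

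Ptcra, the surrogate alpha chain that pairs with a newly made beta chain, stood at 35.8 TPM in replicate 1 (940 counts) and 0.16 TPM in replicate 2 (5 counts). The constant genes of the beta chain, which are shared by every beta chain whatever its variable part, lie 6.85 kb apart on chromosome 6, Trbc1 at 41538218 to 41539881 and Trbc2 at 41546730 to 41548352. Trbc2 stood at 139.7 TPM in replicate 1 and 4.01 TPM in replicate 2, with 1837 and 63 counts. Trbc1 stood at 74.5 TPM in replicate 1, 0.53 times the level of Trbc2, and at 0 in replicate 2, with 1055 and 0 counts. The split of counts between the copies thus differed between the libraries: replicate 2 gave all 63 of its counts to Trbc2.

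How far reads can tell these copies apart depends on their sequence. Over 510 compared bases of their coding parts, Trbc1 and Trbc2 differ at 21 and are 95.9% identical, and 13 of the 21 differences fall in bases 421 to 510, against 8 in the first 420. That stretch is shown from the reference transcripts, 5′ to 3′, with the differing bases in capitals, because it holds most of the differences found. The other bases of the transcripts were not compared.
Trbc1: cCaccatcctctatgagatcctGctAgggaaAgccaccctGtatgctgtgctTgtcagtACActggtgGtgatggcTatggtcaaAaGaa
Trbc2: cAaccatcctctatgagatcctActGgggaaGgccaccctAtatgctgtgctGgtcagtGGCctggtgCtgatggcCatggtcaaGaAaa
Reads from the earlier coding bases are shared out by the model, so the levels of each copy are less certain than their sum. Summed, the copies kept 1.87% of their replicate 1 level in replicate 2.

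The variable segments were not used in the choice of genes. Of 34 beta variable segments, 20 had counts in replicate 1 and 0 in replicate 2, with 246 and 0 counts in all. A total of 0 counts allows up to 3.69 at 95% (exact Poisson). Trbv13-2 held 92 of the 246 counts (37.4%), and Trbv12-2, with 20, came next. The diversity and joining segments of the beta locus, which are very short, were listed at 0 in both libraries.

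The gamma locus gave a similar picture. Tcrg-C1, a constant gene of the gamma chain on chromosome 13 (19214103 to 19217024), stood at 91.3 TPM in replicate 1 and 0.27 TPM in replicate 2 (848 and 3 counts), 0.65 times the level of Trbc2 in replicate 1. Its relatives Tcrg-C2 and Tcrg-C4 stood at 53.6 and 9.18 TPM in replicate 1 and at 0 in replicate 2. All 7 gamma variable segments had counts in replicate 1 and none in replicate 2, 280 and 0 in all. Of these, Trgv2 held 170 counts (60.7%) and Tcrg-V4 48. Gamma constant genes resemble one another, so the split between them is uncertain, while the 4 together gave 1445 and 3 counts.

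The alpha locus gave few counts in either library. Trac, the constant gene of the alpha chain on chromosome 14, had 6 counts in replicate 1 and 3 in replicate 2, at 0.86 and 0.36 TPM. Its exact Poisson upper limit in replicate 2 is 8.77 counts, above the 6 counts of replicate 1, so these counts do not separate the pools. Of 103 alpha variable segments, 13 had counts in replicate 1 and 14 in replicate 2, 44 and 35.0 counts in all. Of 5 delta variable segments, 3 had counts in replicate 1 and 0 in replicate 2, 28 and 0 counts, of which Trdv4 held 21. The delta constant gene was not matched in the tables and is not analysed here.

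**Figure D2:**
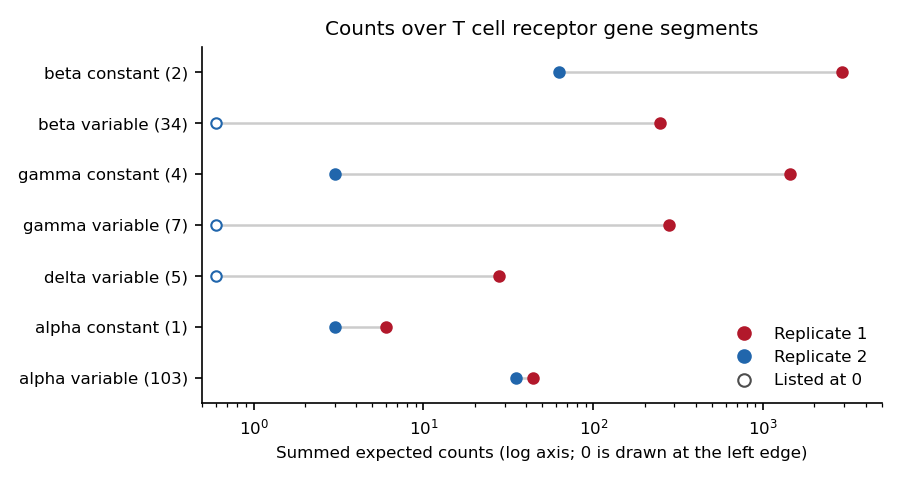
Expected counts summed over the annotated segments of each T cell receptor locus (number of segments in parentheses) on a log axis, red for replicate 1 and blue for replicate 2, with open points at 0. Beta and gamma segments are separated by a wide gap between the libraries, while the alpha constant gene (6 and 3 counts) and alpha variable segments (44 and 35.0) lie close together.

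The recombinase that cuts receptor genes was present in replicate 1, and the enzyme that adds bases at the joints had few counts in both libraries. Rag1 and Rag2, the 2 subunits of the recombinase, lie 5.75 kb apart on chromosome 2, Rag2 at 101624718 to 101632529 and Rag1 at 101638282 to 101649501. Rag1 stood at 9.52 TPM in replicate 1 (1375 counts) and 0.03 TPM in replicate 2 (6 counts). Rag2 stood at 10.7 TPM (541.5 counts) and 0.02 TPM (1 count). The subunits were thus near an equal level in replicate 1, with a Rag1 to Rag2 ratio of 0.89 in TPM.

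Both Rag genes lie within B230118H07Rik, a gene at 44.2 TPM in replicate 1 and 41.0 TPM in replicate 2. The Rag levels of replicate 2 were near 0 although that gene was at almost the same level in both. Dntt, terminal deoxynucleotidyl transferase, which adds bases that no template gives, had 13 counts in replicate 1 and 9 in replicate 2, at 0.30 and 0.17 TPM. Its counting intervals, 6.92 to 22.2 and 4.12 to 17.1, overlap.

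The coreceptors were low in both pools. Cd4 stood at 0.50 TPM (17 counts) in replicate 1 and 0.14 TPM (11 counts) in replicate 2. Cd8a, the alpha chain of CD8, stood at 0.48 TPM (32 counts) and 0 TPM (0 counts). Cd8b1, the beta chain that T cells of the alpha-beta lineage add to CD8, stood at 1.54 TPM (45 counts) and 0.03 TPM (1 count). In replicate 1, Trbc2 at 139.7 TPM and Cd3g at 93.0 TPM stood far above these 3 genes.

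Of the kinases and adaptors behind the receptor, Lck was by far the highest. Lck, the kinase that first phosphorylates the CD3 chains, stood at 81.5 TPM in replicate 1 (3109 counts) and 9.17 TPM in replicate 2 (346 counts). Zap70, the kinase that binds the phosphorylated chains, stood at 4.25 TPM and 0.98 TPM, 0.052 times the level of Lck in replicate 1. Lat, the membrane adaptor downstream of Zap70, stood at 20.1 TPM (509 counts) and 0.07 TPM (2 counts). Themis, a protein of thymocyte selection, stood at 3.74 TPM (370 counts) and 0.02 TPM (2 counts). The adhesion receptor Cd2 stood at 2.35 and 0.04 TPM, and the costimulatory receptor Cd28 at 0.97 and 0.14 TPM.

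Lck kept 11.2% of its replicate 1 level in replicate 2 (95% counting interval 10.04 to 12.6%), where Lat kept 0.35% (0.040 to 1.2%). Lck is known for a proximal promoter that thymocytes use and a distal one. The 150 bases before the distal start and before the most upstream annotated proximal start are shown from RefSeq on GRCm38.p6 (minus strand, 5′ to 3′), because the transcripts of these starts differed between the pools. No motif was searched in them, so they stand in lower case throughout.
Lck distal, chr4:129573642-129573791: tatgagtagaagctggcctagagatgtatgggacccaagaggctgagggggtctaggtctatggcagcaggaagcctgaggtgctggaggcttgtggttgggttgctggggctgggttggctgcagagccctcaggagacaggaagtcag
Lck proximal, chr4:129558392-129558541: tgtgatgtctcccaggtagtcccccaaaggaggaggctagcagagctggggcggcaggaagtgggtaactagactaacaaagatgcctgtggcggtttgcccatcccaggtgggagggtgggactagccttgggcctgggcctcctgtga

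In replicate 1, transcripts from the proximal start gave 52.2 TPM (64.0% of Lck) and the distal transcript Lck-202 gave 12.7 TPM (15.6%). In replicate 2 the distal transcript had 0 counts, against 566.5 in replicate 1. Within the proximal start, Lck-201, whose first exon is unspliced, gave 40.8 TPM in replicate 1 and 0 in replicate 2. Lck-208, which removes a short intron from that first exon, gave 11.4 and 5.46 TPM. Lck-205, a short transcript with a retained intron, was at almost the same level in both pools, 2.37 and 2.64 TPM. As the deposited model shared out the reads, replicate 2 thus lacked Lck-201 and Lck-202, and its main transcripts, Lck-208 and Lck-205, were also present in replicate 1.

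The receptors for interleukins differed from each other. Il2ra (CD25, chromosome 2, 11642807 to 11693193) marks some of the stages before CD4 and CD8 appear. It stood at 21.7 TPM in replicate 1 (1934 counts) and 0.01 TPM in replicate 2 (1 count). It was among the genes with the least left in replicate 2, with 0.046% (0.0011 to 0.242%). Il7r, the receptor for the survival factor interleukin 7, stood at 2.58 TPM (178 counts) and 0.04 TPM (3 counts), 0.12 times the level of Il2ra in replicate 1.

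Both transcription factors were present in each library. Tcf7, which opens the T cell programme downstream of Notch, stood at 41.8 TPM in replicate 1 and 4.05 TPM in replicate 2. Its main transcript Tcf7-201 gave 86.8% of the gene in replicate 1 and 72.6% in replicate 2, and Tcf7-202, which starts further upstream, gave 13.2% and 27.4%. Bcl11b, at the equal levels given above, had Bcl11b-201 at 61.8% and 55.0% and Bcl11b-203 at 36.9% and 45.0%.

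**Figure D3:**
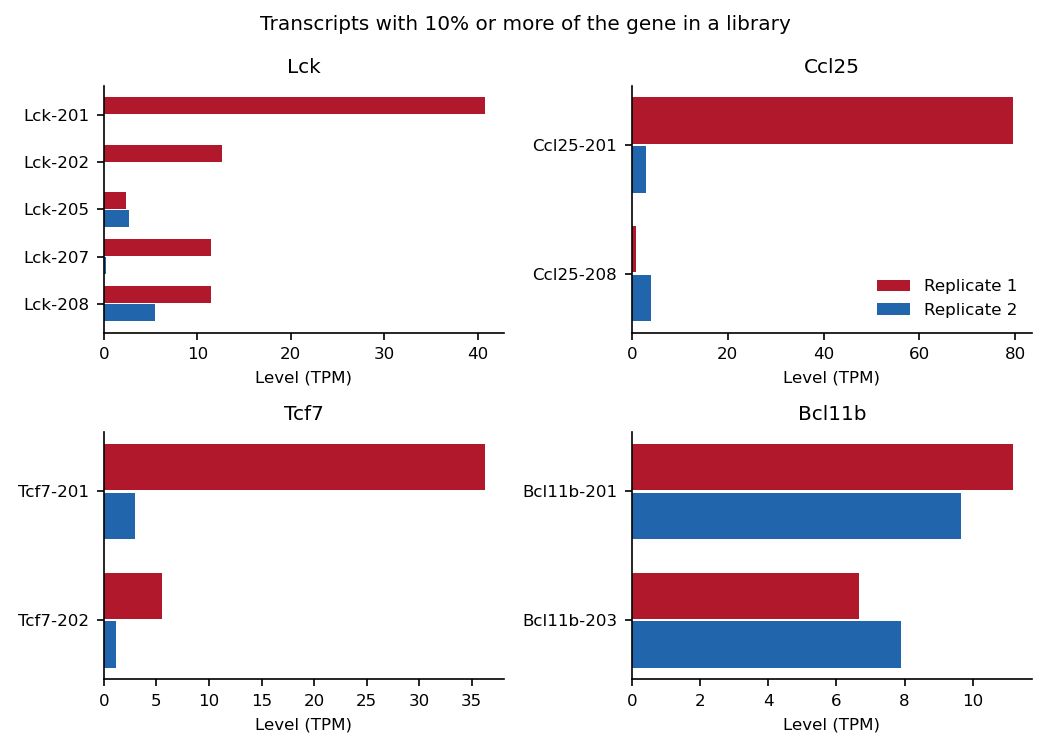
Level in TPM of each transcript holding 10% or more of its gene in either library, for Lck, Ccl25, Tcf7 and Bcl11b, with red bars for replicate 1 and blue bars for replicate 2. Lck-201 (40.8 TPM) and Lck-202 (12.7 TPM) have no blue bar, Lck-205 and the Bcl11b transcripts have bars of like length, and Ccl25-208 is longer in replicate 2 (0.94 and 4.08 TPM).

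Ptprc (CD45), the phosphatase on all white blood cells, stood at 14.7 TPM in replicate 1 and 1.35 TPM in replicate 2, so some white cell RNA was measured in both pools. Gzma, granzyme A, a protease of cytotoxic granules, stood at 75.6 TPM (1306 counts) and 0.10 TPM (2 counts). It was one of the highest lymphocyte genes of replicate 1, next to Tcrg-C1 and Cd3g.

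Genes of the successive steps of thymocyte development were then listed, outside the 38, to set the receptor genes beside them. As background, many are also known from neural or blood cells, and many stood at 1 TPM or more in replicate 2. Of 10 early progenitor genes, 1 of the 7 that met the minimums was higher in replicate 1, Cpa3 (9.72 and 2.18 TPM), with a list median log2 ratio of 0.13. Kit stood at 32.1 and 33.5 TPM and Flt3 at 1.98 and 2.16 TPM. Of 8 genes of Notch signalling and beta selection, 0 of the 7 that met the minimums were called higher, with a median of 0.29. Spib, a factor of the stage at which the beta chain is made, stood at 6.12 TPM (365 counts) and 0.01 TPM (1 count), with a mean below the minimum.

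Of 8 genes of the stage with both coreceptors, 0 of the 4 that met the minimums were higher, with a median log2 ratio of 0.52. Ccr9, the receptor for Ccl25, stood at 1.86 and 0.24 TPM. Tespa1 stood at 2.77 and 0.09 TPM. The 10 genes of mature, CD4 or CD8 single positive cells had a median log2 ratio of 0.49. Ccr7, which guides mature cells, stood at 0.43 and 0.02 TPM, Cd69 at 0.33 and 0.07 TPM, and Foxp3, the factor of regulatory T cells, at 0.03 and 0.06 TPM.

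A set of stage genes, put together after the values were seen, shows the spread within replicate 1. Il2ra, Ptcra, Rag1, Rag2, Trbc1 and Trbc2 stood between 9.52 and 139.7 TPM. Cd4, Cd8a, Trac, Dntt, Ccr7 and Cd69 stood between 0.30 and 0.86 TPM. As background, the first set is known from thymocytes that carry neither coreceptor and are arranging their beta genes, and most of the second from later or mature cells, while Dntt is known to be low in the fetal thymus. Cell stages were not measured one by one, and a bulk level does not say which cells held it.

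Genes of gamma-delta T cells, the first T cells that the fetal thymus makes, were low or absent in replicate 2. Of 9 such genes found, 8 stood at 1 TPM or more in replicate 1 and 1 in replicate 2, and the median log2 ratio was 2.44. Cd163l1 stood at 9.66 TPM (719 counts) and 0.02 TPM (2 counts). Sox13 stood at 5.53 and 3.31 TPM and was the member present in both. Blk stood at 0.78 and 0 TPM. Of 11 genes of natural killer and innate lymphoid cells, only 1 met the minimums, and it was called higher. This was Nkg7, a granule membrane protein, at 24.9 TPM (431 counts) and 0.05 TPM (1 count). The median of the list was 0.56. Zbtb16 stood at 4.89 and 4.29 TPM, Il2rb at 2.29 TPM (132 counts) and 0.10 TPM (7 counts), and Klrd1 at 1.86 TPM (32 counts) and 0 TPM (0 counts). Ncr1 stood at 0.16 TPM in replicate 1, Eomes at 0.05 TPM, Tbx21 at 0.36 TPM and Prf1 at 0.07 TPM. Gzmb (1.44 and 0 TPM) and Klrk1 (1.12 and 0.17 TPM) are named after their values were seen.

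Other genes of T cell signalling, 18 in a list, had a median log2 ratio of 1.78, and 4 of the 5 that met the minimums were higher in replicate 1. Skap1 stood at 19.9 and 6.47 TPM, Sh2d1a at 11.1 and 3.66 TPM and Cd27 at 10.6 and 1.64 TPM. Coro1a, an actin regulator that neurons also make, stood at 157 and 98.2 TPM and was not called. Of 8 other transcription factors of T cells, 3 of the 6 that met the minimums were higher, with a median of 1.31. These were Runx1 (9.70 and 2.33 TPM), Lef1 (24.6 and 5.76 TPM) and Myb (11.3 and 0.65 TPM), while Gata3 stood at 12.8 and 13.1 TPM.

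The 5 genes of thymic epithelium summed to 307 TPM in replicate 1 and 11.9 TPM in replicate 2, against 509 and 5.12 TPM for the 8 receptor chains. Prss16 (ENSMUSG00000006179.4; chromosome 13, 22002173 to 22009742), a protease of the cortical epithelium that prepares class II peptides, stood at 136 TPM in replicate 1 (5720 counts) and 0.07 TPM in replicate 2 (4 counts). It kept 0.052% (0.016 to 0.15%) of its level. Tbata, a regulator of thymic epithelial growth, stood at 58.0 TPM (1222 counts) and 0.03 TPM (1 count). Aire, the factor by which the medullary epithelium shows proteins of other tissues, stood at 2.07 TPM (101 counts) and 0.14 TPM (9 counts). Prss16 exceeded Aire by 65.7-fold in replicate 1. Foxn1, the factor that makes the epithelium thymic, stood at 9.69 TPM (670 counts) and 0 TPM (0 counts), 4.68 times the level of Aire in replicate 1.

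The chemokines kept more of their level in replicate 2 than Prss16 and Tbata did. Ccl21a, which draws progenitors into the thymus and is also made in lymphatic vessels, stood at 24.3 TPM (415 counts) and 0.91 TPM (18.5 counts). Near-identical copies of it share reads: Gm21541 had 56.8 and 0 counts, and Ccl21b and Gm10591 had 0 and 1.23 counts each. Ccl25, the chemokine of thymus and gut that Ccr9 receives, stood at 86.9 TPM (1804 counts) and 10.7 TPM (232 counts). It thus kept 12.3% (10.7 to 14.1%).

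Ccl25 transcripts start at 2 sites on chromosome 8, and these differed between the pools. Transcripts from the downstream site at 4349588 gave 82.7 TPM in replicate 1 (95.2% of the gene) and 3.67 TPM in replicate 2 (34.3%). Those from the upstream site at 4325210 gave 4.18 TPM (4.81%) and 7.04 TPM (65.7%), and were thus not lower in replicate 2. The coding transcript Ccl25-201 gave 79.5 and 2.96 TPM, and Ccl25-208, annotated as a target of nonsense-mediated decay, 0.94 and 4.08 TPM. From the downstream site alone, 4.44% of the level was left in replicate 2 in place of 12.3%. The upstream site lies within Elavl1 on the opposite strand (4285382 to 4325413), at 49.5 and 47.0 TPM, and its part in the upstream reads was not tested. The 150 bases before the downstream start are shown from RefSeq on GRCm38.p6, as the start that carried the difference, with no motif marked.
Ccl25 downstream, chr8:4349438-4349587, plus strand: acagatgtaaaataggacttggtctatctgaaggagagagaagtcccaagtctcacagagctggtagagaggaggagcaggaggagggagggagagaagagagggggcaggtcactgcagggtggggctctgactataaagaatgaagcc

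A wider list of 25 genes of thymic epithelium, outside the 38, had a median log2 ratio of 1.5, and 11 of the 15 that met the minimums were higher in replicate 1. The levels summed to 669 and 93.0 TPM. Krt8, a keratin of simple epithelia, stood at 266 and 1.97 TPM, Epcam at 60.0 and 2.37 TPM, Krt17 at 52.5 and 0.60 TPM, and Cxcl12, which many tissues make, at 74.3 and 31.5 TPM. Keratins and Epcam mark epithelia in general. Of the low members, Fezf2, a factor of the medulla, stood at 0.82 and 0 TPM and Ccl19 at 0.82 and 0.36 TPM.

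The class II molecules and their chaperone were abundant in replicate 1 and stood at or under 2.47 TPM in replicate 2. Cd74, the invariant chain that guards the peptide groove, was the second highest of the 38 genes in replicate 1, at 202 TPM (5108 counts), and stood at 1.30 TPM (39 counts) in replicate 2. H2-Ab1 (ENSMUSG00000073421.5), the beta chain of I-A, stood at 153 TPM (3768 counts) and 0.98 TPM (29 counts). H2-Aa, its alpha chain, stood at 68.3 TPM (1554 counts) and 0.80 TPM (19 counts). H2-Eb1, the beta chain of I-E, stood at 36.2 TPM (871 counts) and 2.47 TPM (71 counts). The order of the chains thus differed: H2-Eb1 was at 0.24 times the level of H2-Ab1 in replicate 1 and at 2.52 times in replicate 2.

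H2-Eb1 kept 6.83% (5.28 to 8.70%) and H2-Ab1 0.64% (0.43 to 0.92%), intervals that do not overlap and cover counting error only. The ratio of Cd74 to H2-Ab1 was 1.32 in replicate 1 and 1.33 in replicate 2. Ciita, the coactivator without which class II genes stay silent, stood at 1.73 TPM (198 counts) and 0.17 TPM (23 counts). It overlaps Dexi on the opposite strand, at 15.1 and 14.2 TPM. Ctsl, which trims the invariant chain in the cortical epithelium and serves lysosomes elsewhere, kept 42.2% (40.8 to 43.6%).

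The class II genes lie side by side on chromosome 17, H2-Ab1 at 34257689 to 34269419, H2-Aa at 34282744 to 34287823 and H2-Eb1 at 34305867 to 34316674. Class II promoters are known for short shared elements, the X and the Y box, through which Ciita acts. The 150 bases before the starts of H2-Aa and H2-Eb1 are shown from RefSeq on GRCm38.p6, 5′ to 3′ on the strand of each gene, because these genes were high together in replicate 1. Capitals mark CTNGCAAC, of the X box, and CTGATTGG, of the Y box.
H2-Aa, chr17:34287824-34287973, minus strand: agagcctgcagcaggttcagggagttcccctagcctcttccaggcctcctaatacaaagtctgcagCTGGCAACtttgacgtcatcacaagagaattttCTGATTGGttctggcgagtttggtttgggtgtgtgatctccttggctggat
H2-Eb1, chr17:34305717-34305866, plus strand: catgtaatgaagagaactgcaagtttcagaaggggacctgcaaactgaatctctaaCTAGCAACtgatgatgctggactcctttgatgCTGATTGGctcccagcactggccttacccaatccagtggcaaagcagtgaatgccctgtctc
These are distances to the RefSeq starts. In H2-Aa the X letters begin 84 bases and the Y letters 51 bases before the start, and in H2-Eb1 94 and 62 bases, with 25 and 24 bases between the elements. H2-Eb1-201, the transcript that held all counts of H2-Eb1, is annotated in GENCODE from 34306017, downstream of that RefSeq start.

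The letters searched were chosen after these sequences were seen, on both strands, and the elements do not overlap. Of 32851 promoter windows of this length, 3.16% held CTGATTGG, 1.95% held CTNGCAAC and 31 (0.094%) held both. Of the 38 genes, 26 had a promoter in the table. CTGATTGG was found in Aire, H2-Aa and H2-Eb1, and CTNGCAAC in H2-Aa, H2-Eb1 and Tbata. A match describes the letters and not a bound site.

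Other genes of the class II pathway varied. Of 15, 1 of the 8 that met the minimums was higher in replicate 1, with a median log2 ratio of 0.18. The lysosomal protease Lgmn stood at 95.9 and 101 TPM and Ctss at 20.9 and 18.3 TPM, both known from microglia. Rfxap, a subunit of the complex that binds the X box, stood at 35.7 and 32.8 TPM. H2-DMa, which loads peptides, stood at 17.6 and 9.96 TPM. Further genes of peptide loading, named after their values were seen, were lower in level: H2-DMb2 stood at 4.80 and 0.14 TPM, H2-DMb1 at 3.44 and 0.24 TPM and H2-Oa at 2.09 and 0.15 TPM. All 3 had means below the minimum. The costimulatory ligand Cd80 stood at 0.11 and 0.14 TPM, and H2-Ob at 0.15 and 0.06 TPM. Of 8 genes of the class I pathway, 5 of the 7 that met the minimums were higher, with a median of 1.23: H2-K1 (58.5 and 13.2 TPM), B2m (238.5 and 113 TPM), Tap1 (9.92 and 2.90 TPM), Tap2 (12.4 and 1.58 TPM) and Erap1 (8.54 and 2.64 TPM). H2-D1 stood at 162 and 118 TPM.

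The amount left in replicate 2 varied widely among the 38 genes. As a percent of the replicate 1 level, 17 genes had less than 1%, 12 had 1 to 10%, 6 had 10 to 50% and 3 had more than 50%, and the median was 1.63%. In replicate 2, 15 genes had 3 counts or fewer, and Cd3g, Trbc1 and Cd8a had 0. By role, the residual of the summed level was 0.21% for the interleukin receptors, 1.01% for the receptor chains, 1.07% for the recombination genes and 3.86% for the thymic epithelium. It was 7.75% for the surface and granule genes, 9.17% for coreceptors and signalling, 15.7% for the class II pathway and 36.1% for the transcription factors. Each of these larger sums rests mainly on 1 gene in replicate 2: Thy1, Lck, Ctsl and Bcl11b in that order.

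Between Lck and Lat, or Ccl25 and Prss16, the counting intervals of the residual do not overlap. These pairs were chosen with their values known, and Ccl25 kept 4.44% when taken from its downstream start alone. What lies behind the unlike residuals was not tested. The genes with most left were Bcl11b, Dntt, Thy1, Ctsl, Cd4, Zap70 and Cd28, in falling order, of which Dntt and Cd4 rest on few counts.

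**Figure D4:**
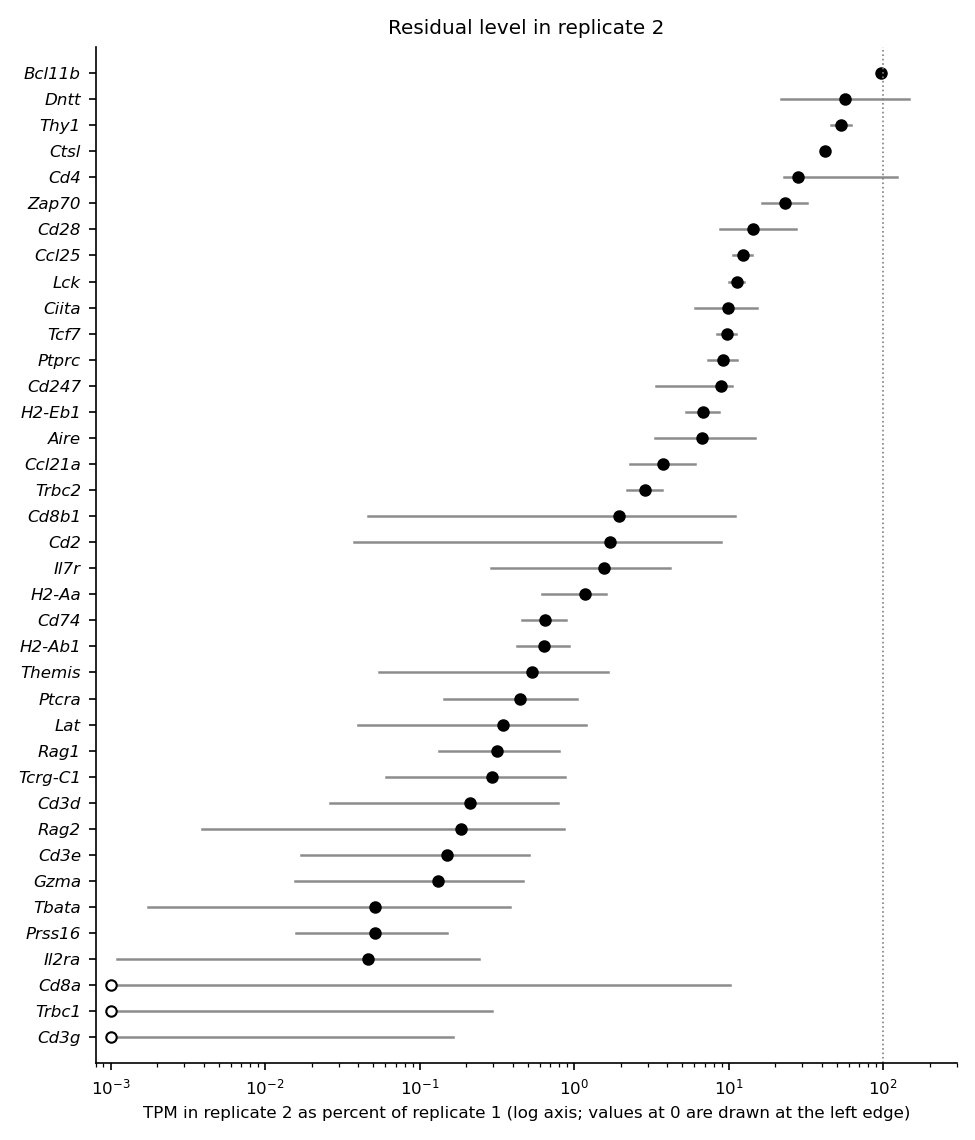
TPM in replicate 2 as a percent of replicate 1 for each of the 38 genes, on a log axis; bars are 95% counting intervals, open points are at 0, and the dotted line marks 100%. The points run from 0 for Cd3g, Trbc1 and Cd8a through 0.046% for Il2ra to 97.1% for Bcl11b.

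Markers of other cells were set beside these values. Of 10 genes of microglia, the resident white cells of the neural tube, 0 of the 8 that met the minimums were called. Their median log2 ratio was 0.06, and they summed to 173 and 155.5 TPM. Of 5 red cell genes, 0 of the 3 that met the minimums were called, with sums of 5914 and 5184 TPM. The 8 neuronal genes had a median of -0.24. Of 10 B cell genes, 1 of the 2 that met the minimums was called higher, Ighm (7.77 and 3.31 TPM), while Ms4a1 stood at 0.03 and 0.05 TPM. Of 7 dendritic cell genes, 1 of the 2 that met the minimums was called, Irf8 (18.3 and 4.16 TPM). Itgax stood at 0.16 and 0.07 TPM and Xcr1 at 0.05 and 0.06 TPM.

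Values for proliferation and for neighbouring or other endoderm were as follows. Of 6 proliferation genes, 5 were higher in replicate 1, with a median of 1.28 and sums of 458 and 215 TPM, among them Top2a (58.2 and 21 TPM). Of 7 genes of other endoderm, only 1 met the minimums, Afp (9.60 and 2.51 TPM), and it was called. The list median was 0.87, and the gut factor Cdx2 stood at 2.59 TPM (124 counts) and 0 TPM (0 counts) and Vil1 at 4.83 and 0.27 TPM. The sums were 21.5 and 4.73 TPM. Of 6 parathyroid and thyroid genes, 0 met the minimums, with a median of 0.06. Pth, the hormone of the parathyroid, which forms beside the thymus, stood at 2.99 TPM (41 counts) and 0 TPM (0 counts), while Gcm2, its regulator, had 1 and 0 counts and Foxe1, of the thyroid, 0 in both. The part of these groups in the levels of the 38 genes was not tested.

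**Figure D5:**
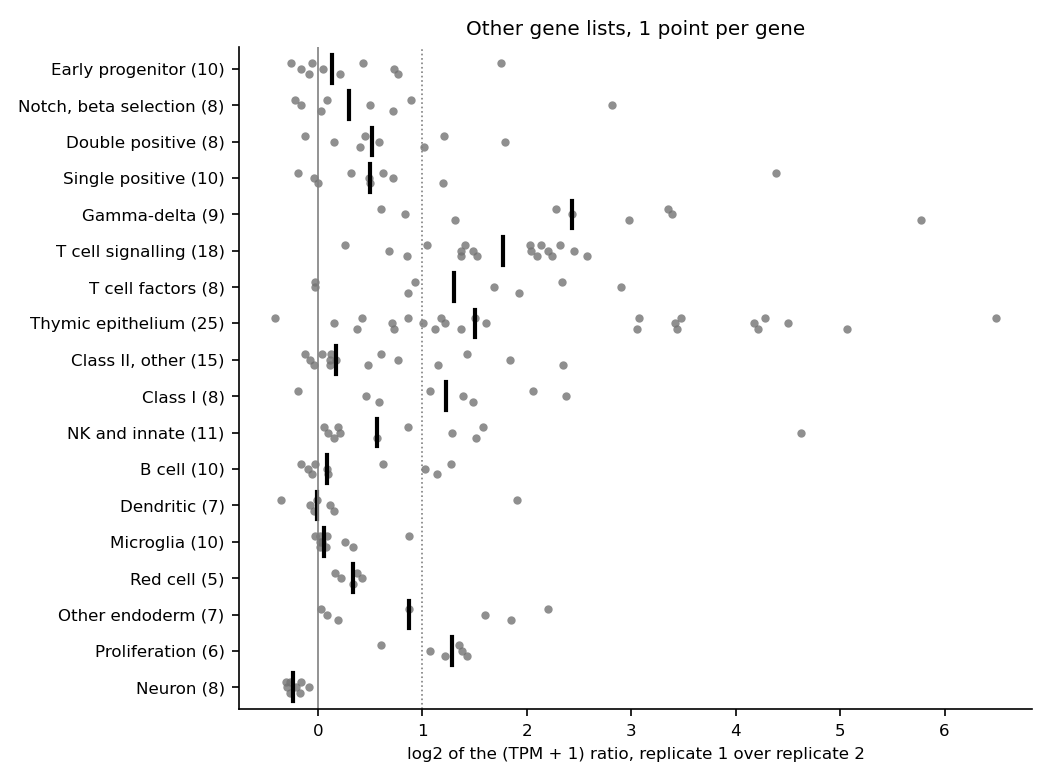
Log2 ratio of (TPM + 1), replicate 1 over replicate 2, for each gene of the lists outside the 38 (number of genes in parentheses), with 1 grey point per gene and a black bar at the list median; the dotted line marks the size of 1 that a call needs. Medians lie above 1 for gamma-delta, T cell signalling and factors, thymic epithelium, class I and proliferation, and between -0.24 and 0.13 for early progenitors, B cells, dendritic cells, microglia and neurons.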

How the data were processed

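Per the labels and the notes deposited with each sample, the authors aligned total RNA reads to mm10 and made 1 gene table and 1 transcript table per library with GENCODE M4. Aligner, quantifier and strand setting were not given in the sources used here. Deposited columns are an expected count, TPM and FPKM per gene or transcript, per the file headers. The transcript tables also hold, per the file headers, each transcript's percent of its gene. TPM was the main measure, and FPKM, posterior mean TPM and scaled counts were alternatives.

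Entries that name no gene were left out: 96 spike-ins (2.12% and 2.28% of counts), 26248 entries named by a number, and 1 other. Symbols and positions came from GENCODE M21 on GRCm38 by identifier without version, with 42462 genes matched and 884 not. The 38 genes, the 28 lists, pairs and rules were chosen with earlier results of these data known. Nothing states more than that the pools are biological replicates.

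The size rule, with a pseudocount of 1 TPM, is given with the results. It was checked on simulated counts with counting error only and changes well above the threshold. That check does not cover variation between pools. A residual is TPM in replicate 2 over TPM in replicate 1. Its 95% interval is exact binomial (Clopper-Pearson) on the 2 counts, scaled by TPM per count. At 20 counts or fewer in replicate 2 that scale came from all well counted genes, since deposited TPM is rounded. Counts alone have exact Poisson intervals. Transcripts are named where they hold 10% or more of a gene with at least 20 counts, and pairs where both genes have at least 10 counts. Transcripts were put to a start when within 100 bases of one in RefSeq. All 38 genes are named. Lists of 10 or fewer are named freely, longer ones by their 4 highest in replicate 1 and those under 1 TPM in both libraries. Some list genes are not reported here. Rounded expected counts went into edgeR 4.0.16 (TMM) and DESeq2 1.42.0 (size factors) in R 4.3.3. Other steps used scipy 1.17.1, numpy 2.4.6, matplotlib 3.10.9 and pandas 2.3.3 (Python 3.11.15).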

Additional observations from a re-analysis of the deposited data

How the results depend on the processing

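Of the 38 genes, 23 were called higher in replicate 1, and 22 to 32 were under the alternatives; these 23 were kept in each that left the size of 1 in place. Over all genes, 400 were higher, against 1099 with no filter on low values and 608 with spike-in scaling, which shifted the median log2 ratio of all genes from 0.01 to 0.12. The median log2 ratio of the 38 genes was 3.22, against 4.43 with a pseudocount of 0.1, 3.29 with TMM, 3.27 with DESeq2 size factors, 3.41 with spike-in scaling and 3.18 from posterior mean TPM. The median residual was 1.63%, against 1.36% with spike-in scaling, 1.5% with TMM and 1.36% without Thy1, Ptprc, Ctsl and Cd74. At 5 TPM in place of 1 TPM, 5 genes in place of 10 were detected in replicate 2. Detection asked of both libraries gave 10 genes, and 10 to 34 when either library was left out. From counts scaled to library size, which ignore transcript length, 2 ratios in replicate 1 turned: the log2 ratio of Cd8a to Cd4 was 0.91 in place of -0.06, and that of Rag1 to Rag2 was 1.34 in place of -0.17. The residuals of Trbc2 summed with Trbc1 (1.87%) and of Ccl25 from its downstream start (4.44%) were added after the data were seen. Depth limits Cd4, Dntt and Trac, with 17 counts or fewer in each library. No paired analysis was possible because there is 1 group and no second group that shares its replicate numbers.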
